A study of Homo sapiens with 16 samples.

Results

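A group of 8 genes of the fibroblast growth factor (FGF) system was followed through the libraries of Sorafenib-resistant hepatocellular carcinoma (HCC) cells. They are the ligands FGF19, FGF21 and FGF2, the co-receptor KLB (beta-Klotho) and the receptors FGFR1, FGFR2, FGFR3 and FGFR4. These 8 genes were chosen by name and looked up by gene ID in a table of 26258 genes, and all 8 were found. A gene was tested where at least 2 libraries held at least 1 CPM (reads of a gene scaled to a common library total), as 15019 genes and 7 of the 8 members did. FGF21 did not, and is described by its reads.

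The data were poly-A RNA-seq libraries of Huh7 and Hep3B, established human HCC lines used for their sensitivity to Sorafenib, a multikinase inhibitor given in advanced HCC. Each line was sequenced as parental cells, as DMSO cells and as 2 resistant derivatives, with 2 libraries in each of the 8 groups. Parental and DMSO cells are both given as untreated, and the resistant IR and CR cells as treated with 7 μM Sorafenib. IR cells had been raised under increasing concentrations of the drug and CR cells under a constantly high one, so each comparison with parental cells holds the presence of the drug together with the resistance. The study's methods name RNA extracted as biological triplicates, the labels do not say whether the 2 libraries of a group came from separate cultures, and p-values measure the spread between these libraries, which may be technical.

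FGF19 is an endocrine hormone of the ileum that is induced by the bile acid receptor FXR, reaches the liver and represses bile acid synthesis through FGFR4 bound to KLB. Normal hepatocytes make little FGF19, and its production by HCC cells that also carry FGFR4 and KLB is known as an autocrine driver of growth. FGF21, a stress and fasting hormone of the hepatocyte, also needs KLB but signals mostly through FGFR1, whereas FGF2 is a paracrine ligand that binds heparan sulfate and acts without a Klotho protein.

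Promoters are shown of KLB, FGFR3 and FGFR4, called lower in both Huh7 derivatives, and of FGF2, the member that rose. RefSeq entries of 300 bases (250 before and 50 after the annotated start, GRCh38.p14) were matched for 6 members. They are given 5′ to 3′ for these 4 genes, with the first listed start where a gene has several, and the capitals mark GC boxes (GGGCGG, read on both strands). The windows are KLB at chr4:39406680-39406979, FGFR3 at chr4:1793043-1793342, FGFR4 at chr5:177086665-177086964 and FGF2 at chr4:122826581-122826880, all on the plus strand.
KLB: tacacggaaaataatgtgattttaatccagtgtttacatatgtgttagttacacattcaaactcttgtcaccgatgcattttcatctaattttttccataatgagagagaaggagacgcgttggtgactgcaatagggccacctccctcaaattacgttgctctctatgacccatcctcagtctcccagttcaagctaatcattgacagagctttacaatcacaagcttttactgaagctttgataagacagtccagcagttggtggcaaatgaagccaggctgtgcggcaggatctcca
FGFR3: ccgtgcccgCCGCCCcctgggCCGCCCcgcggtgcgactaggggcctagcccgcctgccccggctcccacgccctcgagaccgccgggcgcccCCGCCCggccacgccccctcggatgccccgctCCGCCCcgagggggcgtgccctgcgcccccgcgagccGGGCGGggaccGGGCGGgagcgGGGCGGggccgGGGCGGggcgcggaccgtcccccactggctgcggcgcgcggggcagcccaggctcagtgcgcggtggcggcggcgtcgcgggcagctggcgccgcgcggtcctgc
FGFR4: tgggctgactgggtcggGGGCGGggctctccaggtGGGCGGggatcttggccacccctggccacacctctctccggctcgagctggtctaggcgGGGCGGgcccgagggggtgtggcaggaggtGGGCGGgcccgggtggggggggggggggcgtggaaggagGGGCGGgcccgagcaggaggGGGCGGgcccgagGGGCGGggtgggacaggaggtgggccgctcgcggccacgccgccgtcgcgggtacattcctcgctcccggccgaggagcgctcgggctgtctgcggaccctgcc
FGF2: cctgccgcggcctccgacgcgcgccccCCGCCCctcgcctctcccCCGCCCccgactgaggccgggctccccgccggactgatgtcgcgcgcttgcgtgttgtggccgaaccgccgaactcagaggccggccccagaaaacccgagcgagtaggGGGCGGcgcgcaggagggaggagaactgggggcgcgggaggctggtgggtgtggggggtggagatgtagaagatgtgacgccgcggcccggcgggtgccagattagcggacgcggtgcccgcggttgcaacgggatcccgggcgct
The GC content was 42.3% in the KLB window, 86.3% for FGFR3, 78.7% for FGFR4 and 74.7% for FGF2, against a median of 58.3% over 27305 promoters of the same length, so that the window of FGF2 lay within the range of the other 3. FGFR2, which also fell in Huh7, has several listed starts, with 47.3% to 79.3% GC. A further listed start of FGFR4 (chr5:177089300-177089599), not shown, had 57.3% GC and no GC box. GC boxes were found 8 times for FGFR3, 7 times for FGFR4, 3 times for FGF2 and not for KLB, and 44.6% of all promoters held at least 1. A further 4 motifs were searched on both strands and were absent from these 4 windows: a nuclear receptor half-site (AGGTCA, in 13.9% of all promoters), an AP-1 site (TGANTCA, 7.76%), an HNF1 half-site (GTTAAT, 6.89%) and a TATA box (TATAAA, 11.95%). With only the GC box matched, no match overlapped one of another motif. The matches describe the letters of these windows only.

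Library totals lay between 46613302 and 76860251 reads, and replicates of Huh7 DMSO and Huh7-IR cells differed most (SD of the log2 difference over genes 0.571 and 0.566, against 0.236 to 0.310 in the other groups). Replicate differences also ran along the GC content of the genes (Spearman rho over genes 0.53 for the Huh7 parental and -0.51 for the Huh7 DMSO pair). The hepatocyte markers fell as a sum with the resistant state. Their summed level was 10833 to 16415 CPM in Huh7 parental and 19865 to 24528 in Hep3B parental cells, against 128 to 505 in Huh7-IR, 1389 to 2824 in Huh7-CR, 3833 to 11072 in Hep3B-IR and 2330.2 to 3556 in Hep3B-CR cells. None of the 12 markers was at 0 in any group. SERPINA1 went against the sum in Hep3B-IR cells, with 1161 and 2052 CPM. Its level was 392 and 547 CPM in Hep3B parental and 1514 and 2530 CPM in Hep3B DMSO cells. In bulk libraries of a cell line, fewer cells that express these markers and less of their RNA per cell cannot be told apart.

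In the resistant derivatives FGF2 rose and FGF19 and KLB fell in all 4 comparisons with parental cells, while FGFR2, FGFR3 and FGFR4 fell in both Huh7 derivatives and FGFR2 and FGFR3 in Hep3B-CR cells. A gene was called where limma gave a Benjamini-Hochberg adjusted p below 0.05 over all genes tested and a log2 fold change of 0.58 or more either way. By that rule 6 of 7 tested members were called in Huh7-IR cells, where 48.8% of all genes tested were called. The count was also 6 of 7 in Huh7-CR (34.5% of all genes), and it was 3 of 7 in Hep3B-IR (27.1%) and 5 of 7 in Hep3B-CR cells (32.2%). Both derivatives of a line were set against the same 2 parental libraries. Fold changes are given on the log2(CPM + 1) scale, which understates the change of low genes, and the median over all genes was 0.19 (IR) and 0.07 (CR) for Huh7 and 0.06 (IR) and 0.11 (CR) for Hep3B.

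FGF19 (gene ID 9965, chr11:69513006-69518790 on the minus strand, GRCh37) was measured at 14.9 and 12.04 CPM in the Huh7 parental libraries and at 20.7 and 29.7 CPM in Huh7 DMSO cells. The Huh7-IR libraries held 0.862 and 0.365 CPM and the Huh7-CR libraries 1.10 and 0.785 CPM. Hep3B started lower, at 6.49 and 7.24 CPM in parental and 9.84 and 12.9 CPM in DMSO cells. Its resistant libraries held 2.66 and 1.76 CPM (IR) and 1.66 and 1.28 CPM (CR). The resistant libraries of each line lay below all its untreated ones with no overlap, and those of Huh7 lay below those of Hep3B although Huh7 parental cells had held more. The log2 fold change of FGF19 against parental Huh7 was -3.17 for IR (SE 0.24, limma adjusted p = 8.19e-07) and -2.89 for CR cells (2.93e-06). Against parental Hep3B it was -1.30 for IR (0.00154) and -1.68 for CR cells (0.000252).

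FGF2 (ID 2247, chr4:123747837-123819391, plus strand) moved the other way. The Huh7 parental libraries held 15.1 and 16.3 CPM and the Hep3B parental libraries 8.98 and 5.56 CPM. DMSO libraries held 8.34 and 6.38 CPM in Huh7 and 4.398 and 5.35 CPM in Hep3B. In resistant Huh7 the level was 55.9 and 54.9 CPM (IR) and 65.9 and 55.9 CPM (CR), and in resistant Hep3B 48.8 and 42.1 CPM (IR) and 69.2 and 70.0 CPM (CR). All 8 resistant libraries were above all 8 untreated ones, of either line. In log2 units FGF2 rose by 1.76 (IR, SE 0.20, limma adjusted p = 1.95e-05) and 1.89 (CR, 2.01e-05) in Huh7. Hep3B showed larger fitted values, of 2.52 (IR, 3.72e-06) and 3.13 (CR, 7.72e-07). An exon stretch of 804 bases (11.8% of the FGF2 exons) overlaps NUDT6 on the opposite strand, and whether the counting used strand is not given in the sources used here. NUDT6 itself was called in none of the comparisons with parental cells, between IR and CR cells or between the lines. Of these, only Huh7 DMSO against parental cells had an unadjusted p below 0.05 (limma, 0.00841). NUDT6 was not tested with DMSO cells as the reference. Its group means ran from 3.27 CPM (Hep3B-CR) to 6.53 CPM (Huh7 DMSO), with 3.49 CPM in Huh7-IR cells.

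The balance of the 2 ligands shifted toward FGF2 with resistance. Per kb of exon, the ratio of FGF2 to FGF19 was 0.272 and 0.363 in Huh7 parental and 0.108 and 0.0574 in Huh7 DMSO libraries, so that FGF19 was the higher of the pair. The ratio was 17.3 and 40.3 in Huh7-IR and 16.1 and 19.1 in Huh7-CR libraries. Hep3B went from 0.371 and 0.205 in parental and 0.120 and 0.111 in DMSO cells to 4.91 and 6.40 in IR and 11.2 and 14.7 in CR cells. The highest untreated library, at 0.371, was below the lowest resistant one, at 4.91. Which ligand was higher in parental cells depended on the length. Without division by length the ratio was 1.01 and 1.35 in Huh7 parental and 1.38 and 0.767 in Hep3B parental libraries. The lowest resistant ratio was then 18.3, in Hep3B-IR cells.

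**Figure D1:**
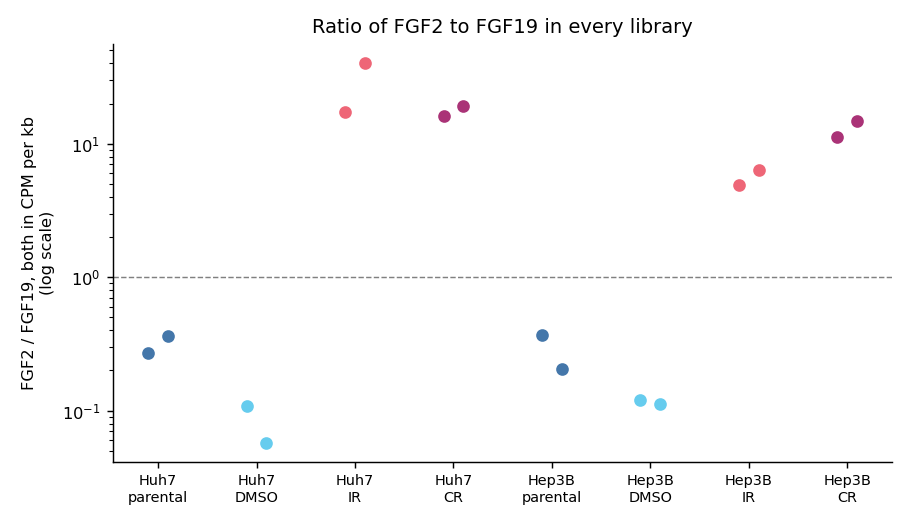
Ratio of FGF2 to FGF19, both as CPM per kb of exon, in each library (log axis, dashed line at equal levels). All 8 parental and DMSO points lie under the line, from 0.0574 to 0.371, and all 8 IR and CR points above it, from 4.91 to 40.3.

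FGF21 (ID 26291, chr19:49258781-49261590, plus strand) was close to the detection limit in Huh7. Its libraries held 1 and 2 reads (parental), 1 and 10 reads (DMSO), 2 and 3 reads (IR) and 0 and 3 reads (CR), and where no read was seen up to 3 remain possible from counting error alone. Hep3B libraries held 29 and 13 reads (parental), 31 and 42 (DMSO), 87 and 31 (IR) and 59 and 18 (CR). The highest, 1.16 CPM in Hep3B-IR, was the only value above 1 CPM, and the ranges of both resistant Hep3B groups overlapped the range of Hep3B DMSO cells. Fitted without the filter on low values, FGF21 was not called in any comparison, with a log2 fold change of 0.46 in Hep3B-IR (limma adjusted p = 0.104, unadjusted 0.0281).

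KLB (ID 152831, chr4:39408550-39453153, plus strand) is the co-receptor that FGF19 and FGF21 share. It was measured at 167 and 184 CPM in Huh7 parental and 261 and 356 CPM in Huh7 DMSO cells. Huh7-IR libraries held 0.547 and 3.26 CPM and Huh7-CR libraries 22.6 and 37.2 CPM. Both sets lay far below the untreated ones, and the IR libraries lay below the CR libraries. Hep3B showed the reverse order, with 114 and 126 CPM in parental, 127 and 125 CPM in DMSO, 44.4 and 65.2 CPM in IR and 9.81 and 10.99 CPM in CR cells.

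Against parental Huh7, KLB changed by -6.10 for IR (SE 0.38, limma adjusted p = 1.65e-07) on the log2(CPM + 1) scale. The Huh7-CR value was -2.55 (adjusted p = 0.000217), and Hep3B gave -1.14 for IR (0.0348) and -3.41 for CR cells (3.66e-05). Only the Hep3B-IR call depended on the setting: it was lost with edgeR on the recovered reads (-1.19, adjusted p = 0.083) and with a smaller pseudocount or no filter. It was also lost without either Hep3B parental library (-1.22 and -1.07) and without Hep3B-IR replicate 1 (-0.87). Set directly against each other, IR and CR cells differed by -3.55 in Huh7 (adjusted p = 0.000190) and by 2.27 in Hep3B (0.00233). KLB was the 1 member of 7 called between IR and CR in Huh7, where 13.7% of all genes were called. The fit shares the spread over all 8 groups, and the Huh7-IR replicates differed more than those of most groups. With only the Huh7 libraries 1.29% of all genes were called, and KLB stayed called. For Huh7-IR against Huh7-CR cells, FGFR1 was -2.04 without Huh7-IR replicate 1 and FGFR4 was -1.46 without Huh7-IR replicate 2. In Hep3B 2 of 7 were called, KLB and FGFR2, against 11.7% of all genes.

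FGFR4 (ID 2264, chr5:176513906-176525145, plus strand), the hepatocyte receptor of FGF19, was at 114 and 97.5 CPM in Huh7 parental and at 106 and 109 CPM in Hep3B parental cells. DMSO libraries held 122 and 176 CPM in Huh7 and 165 and 198 CPM in Hep3B. Resistant Huh7 fell to 8.72 and 36.6 CPM (IR) and 19.5 and 33.9 CPM (CR), and Hep3B libraries held 62.6 and 60.4 CPM (IR) and 47.6 and 49.0 CPM (CR). Every resistant library was below every untreated one of its line. The log2 fold change was -2.48 in Huh7-IR (SE 0.45, limma adjusted p = 0.000590) and -1.99 in Huh7-CR cells (0.00409, a call lost without Huh7-CR replicate 1). The Huh7-IR value was -1.503 without its replicate 1 and -3.45 without its replicate 2. The Hep3B values, -0.80 for IR (0.210) and -1.14 for CR cells (0.0658), did not pass. The Hep3B-CR value of FGFR4 passed under 7 of 17 alternatives and stayed uncalled under 10. After removal of the dependence on GC content, which is 63.4% in the longest transcript of this gene, the value was -1.52 (0.00653).

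FGFR3 (ID 2261, chr4:1795020-1810599, plus strand) followed FGFR4. Huh7 libraries held 80.2 and 69.7 CPM (parental), 121 and 201 CPM (DMSO), 4.04 and 10.2 CPM (IR) and 4.37 and 8.53 CPM (CR). Hep3B libraries held 156 and 141 CPM (parental), 155 and 199.6 CPM (DMSO), 68.0 and 81.6 CPM (IR) and 49.7 and 60.1 CPM (CR). Resistant and untreated libraries did not overlap in either line. The log2 fold change of FGFR3 was -3.33 for Huh7-IR (SE 0.36, limma adjusted p = 1.16e-05), -3.40 for Huh7-CR (1.72e-05) and -1.43 for Hep3B-CR cells (0.00804, a call lost without Hep3B-CR replicate 1). The Hep3B-IR value was -0.99 and missed the threshold (0.0532), which it passed under 9 of 17 alternatives, such as the GC correction (0.0105) and the replicate number as a block (0.0169).

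FGFR2 (ID 2263, chr10:123237846-123357972, minus strand) set the lines apart. Huh7 parental libraries held 8.13 and 6.88 CPM (559 and 514 reads) and Huh7 DMSO libraries 2.48 and 2.38 CPM (180 and 166 reads). Huh7-IR libraries held 1 and 0 reads and Huh7-CR libraries 5 and 0 reads. Pooled over the pair of libraries, the level relative to parental cells was 800.2-fold lower in Huh7-IR (exact 95% interval 143 to 31636, counting error only) and 211-fold lower in Huh7-CR cells (90.2 to 652). The fitted log2 fold changes, -3.07 (SE 0.20, limma adjusted p = 2.63e-07) and -3.03 (4.14e-07), are set by the pseudocount at these levels.

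In Hep3B, FGFR2 was abundant. Libraries held 79.3 and 70.4 CPM (parental), 77.6 and 93.4 CPM (DMSO), 91.8 and 114 CPM (IR) and 25.4 and 37.0 CPM (CR). The CR libraries lay below all other Hep3B libraries, whereas the IR and DMSO ranges overlapped. FGFR2 fell by 1.26 in Hep3B-CR (limma adjusted p = 0.000493), was not called in Hep3B-IR (0.45, 0.111) and was higher in IR than in CR cells by 1.71 (0.000254).

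FGFR1 (ID 2260, chr8:38257733-38326352, minus strand), the receptor through which FGF2 and FGF21 signal in most mesenchymal and adipose cells, was not called in any comparison with parental cells. Huh7 libraries held 5.02 and 5.18 CPM (parental), 2.06 and 1.34 CPM (DMSO), 11.7 and 2.08 CPM (IR) and 13.8 and 9.83 CPM (CR). Hep3B libraries held 16.02 and 18.8 CPM (parental), 14.5 and 16.7 CPM (DMSO), 40.05 and 37.9 CPM (IR) and 24.3 and 26.9 CPM (CR). In Huh7-CR and in both resistant Hep3B groups all resistant libraries were above all untreated ones, while the Huh7-IR pair lay on either side of the parental level. For Huh7 the fitted values were 0.03 (IR, SE 0.46, limma adjusted p = 0.961) and 1.05 (CR, 0.0843), and for Hep3B 1.123 (IR, 0.0808) and 0.54 (CR, 0.384). The Huh7-IR value rested on its single libraries: it was -0.99 without replicate 1 and 1.05 without replicate 2.

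**Figure D2:**
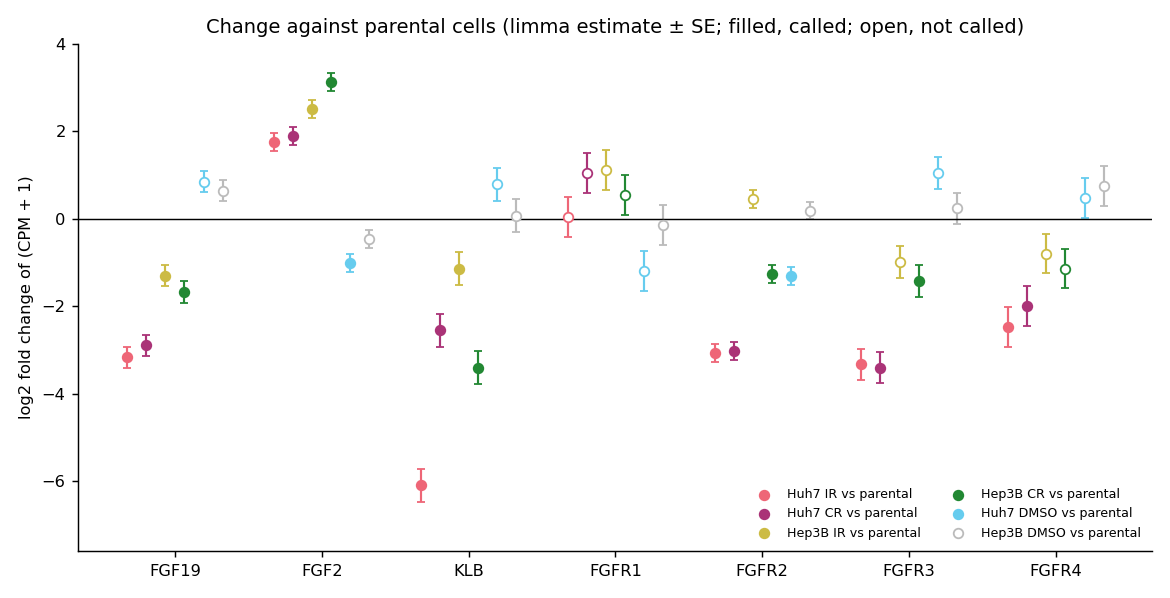
Log2 fold change of (CPM + 1) against parental cells for the 7 tested genes, as limma estimates with error bars of 1 SE, filled where called and open where not. FGF2 is the one gene called above 0, from 1.76 to 3.13 in resistant cells, KLB reaches -6.10 in Huh7-IR cells, and the DMSO points lie mostly on the side of 0 opposite to the resistant points.

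The receptors as a set lost most of their level in Huh7. Summed over FGFR1 to FGFR4, the level per kb of exon was 41.0 and 35.3 CPM per kb in Huh7 parental and 50.5 and 78.3 in Huh7 DMSO libraries. It was 3.33 and 9.84 in Huh7-IR and 5.77 and 9.37 CPM per kb in Huh7-CR libraries. Hep3B held 59.4 and 56.6 (parental), 71.2 and 88.3 (DMSO), 34.2 and 37.67 (IR) and 22.9 and 26.1 CPM per kb (CR). The sums of resistant and untreated libraries did not overlap within a line.

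FGFR4 and FGFR3 made up most of this sum in every group. In Huh7 parental cells FGFR4 took 57.7% ± 0.369 (SD, n = 2) and FGFR3 40.5% ± 0.281, with 0.783% for FGFR1 and 1.05% for FGFR2. In Huh7-CR cells FGFR4 took 72.7% ± 3.38, FGFR3 17.2% ± 2.21 and FGFR1 10.0% ± 5.54. In Huh7-IR cells the FGFR1 share was 10.8% ± 13.5, a spread wider than the value. Hep3B parental cells gave 52.9% ± 1.95 to FGFR3, 38.5% ± 2.03 to FGFR4, 6.85% ± 0.336 to FGFR2 and 1.75% ± 0.256 to FGFR1. In Hep3B-IR cells FGFR2 took 15.2% ± 1.33 and FGFR1 6.32% ± 0.674, above their parental ranges. The shares depend on the length used, since the joined exons of FGFR1 and FGFR2 (17201 and 18813 bases) are much longer than their longest transcripts (6216 and 6964 bases). By the longest transcript the Hep3B-IR shares were 25.3% for FGFR2 and 10.8% for FGFR1, and FGFR3 and FGFR4 were level in Hep3B parental cells (41.7% and 42.0%).

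**Figure D3:**
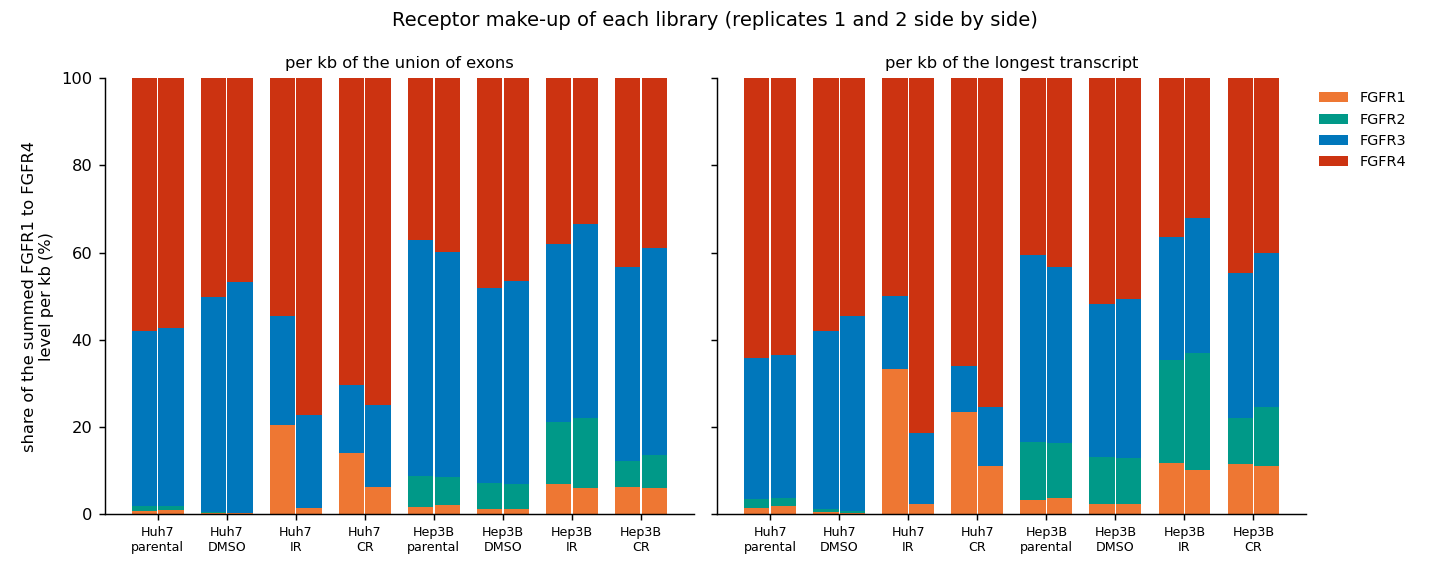
Share of FGFR1 (orange), FGFR2 (green), FGFR3 (blue) and FGFR4 (red) in their summed level per kb (percent), one stacked bar per library, by the union of exons (left) and by the longest transcript (right). FGFR3 and FGFR4 fill nearly all of the Huh7 parental bars (40.5% and 57.7% on the left), and FGFR1 differs between the 2 Huh7-IR libraries.

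DMSO cells, given as untreated like the parental cells, were not the same as them for these genes. In Huh7 DMSO cells 2 of 7 tested members were called (4.83% of all genes), both lower: FGFR2, by -1.31 (SE 0.20, limma adjusted p = 0.00524), and FGF2, by -1.01 (0.0192). Both calls were lost without Huh7 parental replicate 1, and that of FGF2 also without parental replicate 2 or DMSO replicate 2. Without Huh7 DMSO replicate 1 the log2 fold change was 1.10 for FGF19 and 1.42 for FGFR3. FGF19 (0.85, 0.0642), FGFR3 (1.05, 0.104) and KLB (0.79, 0.213) were higher in DMSO than in parental cells without passing. In Hep3B DMSO cells limma, edgeR and DESeq2 called 0 of 7 members, against 1.58% of all genes by limma, and 1 passed at an unadjusted p below 0.05, FGF19 at 0.64.

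With the DMSO libraries in place of the parental ones, 7 of 7 members were called in each resistant Huh7 derivative (47.0% of all genes in IR and 34.7% in CR) and 6 of 7 in each Hep3B derivative (32.1% in IR and 32.9% in CR). FGFR1 was then called in Huh7-IR (1.22, limma adjusted p = 0.0381), Huh7-CR (2.25, 0.00196) and Hep3B-IR cells (1.27, 0.0446). The Huh7-IR call of FGFR1, and with it the 7 of 7 there, rested mostly on replicate 1 (11.7 CPM). Replicate 2 (2.08 CPM) lay close to the Huh7 DMSO libraries (2.06 and 1.34 CPM). FGFR4 was called in Hep3B-IR (-1.54, 0.0181) and Hep3B-CR cells (-1.88, 0.00595), and FGFR3 in Hep3B-IR cells (-1.23, 0.0171). The FGFR2 decrease in Huh7 was smaller against DMSO cells, at -1.77 in IR and -1.73 in CR cells, and the FGF2 increase larger, at 2.76 and 2.89.

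The parental lines differed in 5 of 7 members, where 42.6% of all genes were called. Huh7 held more FGF2 than Hep3B (1.04, SE 0.20, limma adjusted p = 0.00102) and more FGF19 (0.87, 0.00987). Hep3B held more FGFR2 (-3.16 for Huh7 minus Hep3B, 1.11e-07), FGFR1 (-1.59, 0.0118) and FGFR3 (-0.98, 0.0375). Leaving out Huh7 parental replicate 1 lost the calls of FGF19, FGFR1 and FGFR3. The FGF19 call was also lost without Hep3B parental replicate 1, and the FGFR1 call without replicate 2 of that group. The FGFR3 call was lost under 7 of 16 alternatives, among them leaving out any 1 of the 4 parental libraries. KLB (0.54, 0.252) and FGFR4 (-0.03, 0.971) were not called.

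The resistant change differed between the lines for 5 of 7 members, by the interaction term of the same model, which called 29.4% of all genes. Averaged over IR and CR, FGFR2 changed by -3.05 in Huh7 and -0.40 in Hep3B, a difference of -2.65 (SE 0.25, limma adjusted p = 1.45e-05). The Hep3B mean of FGFR2 joins 0.45 in IR and -1.26 in CR cells, and with the Huh7 level near 0 the difference ran from -8.33 to -1.14 over the alternatives. The averaged decreases of FGFR3 (-3.37 and -1.21), KLB (-4.33 and -2.28) and FGF19 (-3.03 and -1.49) were also larger in Huh7, by -2.16 (0.00303), -2.05 (0.00528) and -1.54 (0.00217). For KLB this held in IR cells only. From parental to CR cells the mean KLB level went from 175 to 29.9 CPM in Huh7 and from 120 to 10.4 CPM in Hep3B, the larger decrease. The increase of FGF2 was smaller in Huh7 (1.82) than in Hep3B (2.82), a difference of -1.0 (0.00942). It was not called with the DMSO reference (-0.46, 0.177) or without Hep3B parental replicate 2 (-0.70). FGFR4 (-1.27, 0.103) and FGFR1 (-0.29, 0.734) were not called, but both depended on the Huh7-IR libraries: FGFR4 was -1.76 without replicate 2 and FGFR1 was -0.79 without replicate 1.

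Ordered by mean level over the 8 groups, FGF19 ran from Huh7 DMSO (25.2 CPM) to Huh7-IR cells (0.613), and the replicate ranges of neighbours overlapped only between Huh7 parental and Hep3B DMSO and between Huh7-CR and Huh7-IR cells. KLB ran from Huh7 DMSO (308 CPM) to Huh7-IR cells (1.90), with overlap only between Hep3B DMSO and Hep3B parental cells. FGF2 ran from Hep3B-CR (69.6 CPM) to Hep3B DMSO cells (4.87), and only the Huh7 DMSO and Hep3B parental ranges overlapped among neighbours. FGFR4 and FGFR3 were both highest in Hep3B DMSO cells (181 and 177 CPM). The lowest group was Huh7-IR for FGFR4 (22.7 CPM) and Huh7-CR for FGFR3 (6.45 CPM), and for both genes these 2 groups overlapped. FGFR1 and FGFR2 were highest in Hep3B-IR cells (39.0 and 103 CPM), FGFR1 without overlap with the next group and FGFR2 with overlap. FGF21 was higher in each Hep3B group (0.287 to 0.802 CPM) than in any Huh7 group (0.0196 to 0.0787 CPM).

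Across the 16 libraries FGFR3 and FGFR4 had a Pearson r of 0.93, KLB and FGFR4 of 0.87, FGF19 and KLB of 0.87 and FGF19 and FGF2 of -0.88, on log2(CPM + 1) values. The libraries share 2 lines and 8 groups, so these values describe the pattern and carry no p. The tested genes most like each member were ISX and ITGAL for FGF19 (both r = 0.97), TMEM65 and ANKRD42 for FGF2 (both 0.97) and C2orf72 and HGD for KLB (both 0.96). For the receptors they were SETD3 and ATP6V1D for FGFR1 (both 0.95), OIP5-AS1 and RNF138 for FGFR2 (both 0.98), CEBPA and ASGR2 for FGFR3 (both 0.98) and ABCC6 and PROC for FGFR4 (0.99 and 0.98).

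Of 19 other FGF ligands, 6 passed the filter. Counts are given here for Huh7 first (IR, then CR) and for Hep3B next (IR, then CR), and over all genes tested 31.1%, 20.9%, 15.7% and 20.0% were called higher and 17.8%, 13.6%, 11.4% and 12.3% lower. Of the 6 ligands 1, 2, 0 and 2 rose and 2, 2, 0 and 1 fell, with list medians of 0.15, 0.03, -0.04 and 0.57 (medians of all genes 0.19, 0.07, 0.06 and 0.11). FGF5, a secreted ligand of the FGF4 family, was absent or nearly so in Huh7 parental cells (0.0146 and 0.0402 CPM) and was measured at 9.60 and 15.3 CPM in Huh7-IR and 17.4 and 8.81 CPM in Huh7-CR cells. FGF5 rose by 3.68 (limma adjusted p = 4.54e-07) and 3.71 (6.44e-07) in these cells, and stayed at or below 0.286 CPM in Hep3B, where it was not called. FGF1, the ligand of all FGF receptors, rose in Huh7-CR (1.76, 0.000151) and Hep3B-CR cells (0.93, 0.0102). FGF12 and FGF14, intracellular FGF homologues that bind sodium channels, fell in Huh7-IR (-1.87 and -0.90) and Huh7-CR cells (-2.07 and -0.84), and FGF14 also in Hep3B-CR cells (-0.67).

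Among 17 co-receptors and binding proteins, 13 were tested, of which 7, 5, 4 and 6 rose and 2, 2, 1 and 1 fell in the same order (medians 0.67, 0.42, 0.57 and 0.24). GPC1, a heparan sulfate proteoglycan, was at 0.931 and 0.335 CPM in Huh7 parental and at 81.9 and 83.6 CPM in Huh7-IR cells, a rise of 5.70 (limma adjusted p = 2.18e-09). The rise of GPC1 in Huh7-CR cells was 5.49, and Hep3B values were 0.06 (IR, not called) and 0.64 (CR, adjusted p = 0.0240). ANOS1, a secreted protein that binds heparan sulfate and modulates FGFR1 signaling, rose most in Hep3B-CR cells (4.10), followed by Hep3B-IR (2.04) and Huh7-IR cells (0.95). SDC4, a syndecan, fell in both Huh7 derivatives (-1.46 in IR and -1.32 in CR) and was not called in Hep3B, and LCTL, a Klotho-like protein, fell in Hep3B-IR (-1.02) and Hep3B-CR cells (-0.91). KL, the co-receptor of FGF23, did not pass the filter.

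The 22 adaptors and kinases downstream of the receptors were all tested, of which 7, 2, 1 and 2 rose and 2, 0, 2 and 1 fell, with medians between -0.03 and 0.00. PLCG1, the phospholipase recruited to the activated receptor, rose in Huh7-IR (1.52) and Huh7-CR cells (0.58). FRS3, a docking adaptor, rose in Huh7-IR (1.16) and Hep3B-CR cells (0.91). CRKL fell in Huh7-IR cells (-0.90).

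The 15 feedback inhibitors and transcriptional targets of FGF signaling were all tested. In Huh7, 4 rose and 6 fell in both IR and CR cells (medians -0.03 and -0.32), and in Hep3B 8 rose and 2 fell in IR and 6 rose and 1 fell in CR cells (medians 0.67 and 0.27). The interaction term called 11 of 15, 7 of them lower in Huh7 and 4 higher, where 13.1% of all genes were called lower and 16.3% higher. SPRY4, DUSP4 and ETV4, named after their values were seen, fell in both Huh7 derivatives and rose in both Hep3B derivatives. Their line differences were -2.42 for SPRY4 (SE 0.28, limma adjusted p = 5.93e-05), -3.29 for DUSP4 (1.49e-06) and -2.72 for ETV4 (2.96e-05). SPRED3 rose in all 4 derivatives (0.67 to 1.64) and ETV1 fell in all 4 (-0.88 to -1.29). SPRY2 rose in Huh7-IR (2.17), Huh7-CR (2.36) and Hep3B-IR cells (1.14), and DUSP6, the phosphatase of ERK, fell in Huh7-IR (-1.44) and Huh7-CR cells (-1.61). These genes respond to ERK activity from any receptor, not to FGF alone.

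**Figure D4:**
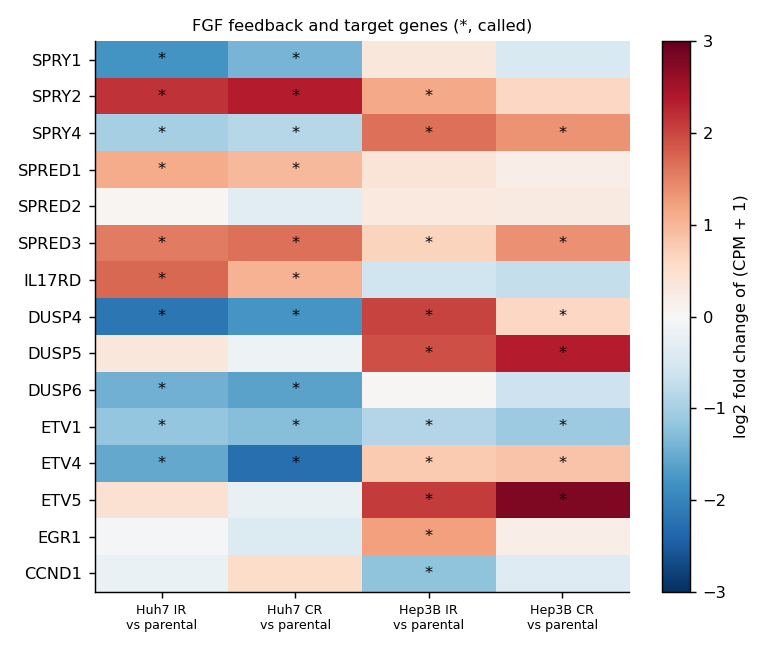
Log2 fold change of (CPM + 1) against parental cells for the 15 feedback and target genes (rows) in the 4 resistant groups (columns), red for higher and blue for lower, with an asterisk where called. SPRY4, DUSP4 and ETV4 are blue in both Huh7 columns and red in both Hep3B columns, and ETV1 is blue in all 4.

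The bile acid axis was tested for 8 of 13 genes, of which 2, 1, 0 and 0 rose and 5, 3, 2 and 4 fell (medians -1.52, -0.74, -0.35 and -0.73). NR5A2, the nuclear receptor LRH-1 that drives bile acid synthesis genes, fell in Huh7-IR (-4.40), Huh7-CR (-2.42) and Hep3B-CR cells (-1.45). HNF4A, a hepatocyte master regulator, fell in Huh7-IR (-2.45) and Huh7-CR cells (-1.28). CYP27A1, of the alternative pathway of bile acid synthesis, rose in Huh7-IR (1.27) and Huh7-CR cells (1.07). CYP7A1 and CYP8B1, the genes that FGF19 represses in liver, were at or under 0.0497 CPM in every library of either line.

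Of 8 genes listed as FGF21 regulators with its protease, 7 were tested. FGF21 itself was too low to test. In resistant cells 4, 5, 5 and 6 of these genes rose and 1, 0, 0 and 0 fell (medians 0.91, 1.62, 1.60 and 1.73, against 0.19, 0.07, 0.06 and 0.11 over all genes). In untreated DMSO cells 1 of the 7 was called higher in each line, where 520 (Huh7) and 160 (Hep3B) of all 15019 genes tested were called higher. The list medians in DMSO cells were 0.94 for Huh7 and 1.07 for Hep3B (0.05 and 0.01 over all genes). TRIB3, a pseudokinase induced in the integrated stress response, rose by 2.49, 1.67, 3.04 and 3.36, and DDIT3, a transcription factor of the same response, by 2.58, 1.62, 1.87 and 2.81. FAP, the protease that cleaves FGF21, did not pass the filter.

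FGF19 lies on 11q13 beside CCND1, a region amplified in some HCC. Of 10 listed neighbours FGF3 and FGF4 had no reads and the other 8 were tested, with 0, 0, 0 and 1 higher and 4, 1, 2 and 0 lower (medians -0.51, -0.14, -0.45 and -0.22). CCND1 (cyclin D1) was lower in Hep3B-IR cells (-1.22) and not called in the others (-0.19, 0.56 and -0.40 in Huh7-IR, Huh7-CR and Hep3B-CR). LTO1 was higher in Hep3B-CR cells (0.88). FADD, an adaptor of death receptors, was lower in Huh7-IR (-0.95) and Hep3B-IR cells (-0.94), and SHANK2 in Huh7-IR (-0.87) and Huh7-CR cells (-0.72). PPFIA1 (-0.64) and CTTN (-0.58) were lower in Huh7-IR cells and not called in the others, and MYEOV and ANO1 were not called, with values from -0.30 to -0.06. The lowest neighbour in Huh7-IR cells was thus FADD at -0.95, beside the -3.17 of FGF19.

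Marker genes of cell types were measured beside these results. Of 12 hepatocyte markers, 10, 9, 5 and 8 fell and 0, 0, 1 and 0 rose (medians -4.94, -3.39, -2.10 and -3.80), AFP by -10.22, -8.19, -1.74 and -5.03. Of 8 fibroblast or stellate markers 6 were tested, and 5, 5, 1 and 1 rose and 1, 1, 1 and 0 fell (medians 2.22, 3.68, 0.01 and -0.01). COL1A1 rose in all 4 (4.21 to 5.69), and the summed level of the list was 285 to 337 CPM in Huh7 parental, 322 to 482 in DMSO, 316 to 340 in IR and 499 to 782 CPM in CR cells and 23.4 to 87.1 CPM in Hep3B, with THY1 at or under 0.0569 CPM throughout. Of 5 endothelial markers only PECAM1 was tested, which fell in Huh7-IR and Huh7-CR cells (-1.09 and -0.95), and their summed level was at most 6.36 CPM. Of 5 leukocyte markers 3 were tested, with 1 higher in each comparison (CD68) and 2, 1, 0 and 0 lower, and CD3E stayed at or under 0.0530 CPM. Of 4 cholangiocyte markers, KRT7 rose in Huh7-IR (3.68), Huh7-CR (3.64) and Hep3B-CR cells (1.68) and no other was called. The part of these marker changes in the changes of KLB, FGFR3, FGFR4, FGF19 and FGF2 was not tested.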

How the data were processed

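Poly-A RNA of 16 libraries was sequenced from Huh7 and Hep3B cells, 2 libraries in each of 8 groups, and samples were grouped by their titles. The study's methods speak of biological triplicates and describe resistant cells of both lines, while the labels' protocols name Huh7 alone. The authors mapped single-end reads to hg19 with STAR, kept unique hits, counted them over RefSeq exons and deposited CPM values scaled to the library total. The deposited CPM values corresponded to whole reads (100% of them, with a tolerance of 0.05 reads), so reads could be recovered. Of 26258 gene IDs, 26111 were matched to a symbol. Gene coordinates are from GENCODE on GRCh37, and promoters from RefSeq on GRCh38.p14.

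Values were fitted as log2(CPM + 1) with limma 3.58.1 (R 4.3.3, mean-variance trend), with all 8 groups in 1 model and 15019 genes that reached 1 CPM in 2 or more libraries. Calls needed a Benjamini-Hochberg adjusted p below 0.05 and a log2 fold change of 0.58 or more either way. The fit was tested on simulated data. Genes were named as follows: all members; of each pathway list the 2 highest and 2 lowest by mean log2 fold change among those called in at least 1 resistant comparison; every 11q13 neighbour; and the 2 genes most correlated with each member. Some genes of these lists are not reported here. Members and lists were chosen with earlier results of these data known. Ratios with few reads carry exact 95% intervals. Alternatives were edgeR 4.0.16 and DESeq2 1.42.0 on recovered reads, other scalings, pseudocounts of 0.25 and 4 CPM, no filter, unadjusted p, libraries of 1 line, a GC correction (known for 97.2% of tested genes), a replicate block, the DMSO reference and leaving out each library. Leaving out a library leaves 1 in its group, and the spread then comes from the other groups alone. Calls gained or lost in such a fit do not measure the spread of that group.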

Additional observations from a re-analysis of the deposited data

Results flagged for a closer look

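The resistant change, averaged over IR and CR cells, differed between Huh7 and Hep3B for 5 members by the interaction term of the limma model. The value for Huh7 minus Hep3B was -1.54 for FGF19, -1.0 for FGF2, -2.05 for KLB, -2.65 for FGFR2 and -2.16 for FGFR3, in log2 units. For FGF19, KLB and FGFR3 the averaged decrease was larger in Huh7, and for FGF2 the increase was larger in Hep3B. The larger KLB decrease in Huh7 came from IR cells, and in CR cells KLB decreased more in Hep3B. FGFR2 fell in both Huh7 derivatives, to a level near 0 where the value depends on the pseudocount, while in Hep3B it was 0.45 in IR and -1.26 in CR cells. The term called 29.4% of all genes tested. The summed level of the hepatocyte markers went from 10833 to 16415 CPM in Huh7 parental cells to 128 to 505 (IR) and 1389 to 2824 CPM (CR), and from 19865 to 24528 CPM in Hep3B parental cells to 3833 to 11072 (IR) and 2330.2 to 3556 CPM (CR), and their part in these differences was not tested.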

How the results depend on the processing

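Over 70 values of members (7 genes in 10 comparisons) and 1211 alternatives, 1109 kept their direction and their side of the threshold, 51 came to pass it, 26 no longer passed and 25 turned sign. None of the 35 called values turned sign under an alternative, and 26 of them stayed called under each one run. Unadjusted p, the replicate block and the fits of only the libraries of 1 line keep the fold change by design. They could not turn a sign, and unadjusted p could not lose a call. Counts of called members moved by over 1.5 times as follows. The Hep3B-IR count of 3 was 5 with unadjusted p, 5 with a pseudocount of 4 CPM, 6 with only the Hep3B libraries, 5 with the replicate block and 6 with the DMSO reference (30.1%, 21.5%, 30.3%, 27.2% and 32.1% of all genes). The Huh7 DMSO count of 2 was 5 with unadjusted p (14.5% of all genes) and 1 with only the Huh7 libraries (0.193%), and it also moved with 1 library left out. The Hep3B DMSO count of 0 was 1 with unadjusted p (8.06%) and 1 with only the Hep3B libraries (3.44%). The count of 1 between Huh7-IR and Huh7-CR was 2 with unadjusted p (21.0%), and it also moved with 1 library left out. Between Hep3B-IR and Hep3B-CR 2 became 4 with the replicate block and the GC correction together (12.1%). Between the parental lines the count of 5 fell when any 1 of the 4 parental libraries was left out.

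Values that turned sign were all uncalled in the fit reported. FGFR1 in Huh7-IR was -0.13 with TMM factors, -0.40 with quantile normalization, -0.023 with a pseudocount of 0.25 CPM, -0.17 with the GC correction with or without the block, and -0.99 to 1.05 with 1 library left out. FGFR3 between Huh7-IR and Huh7-CR was -0.010 with TMM factors, -0.17 with quantile normalization, -0.38 with the GC correction with or without the block and -0.50 to 0.65 with 1 library left out. In that comparison, leaving out 1 library gave -1.46 to 0.49 for FGFR4 and -0.096 to 0.012 for FGFR2. FGFR4 between the parental lines was 0.062 with TMM factors, 0.054 with DESeq2, 0.063 with edgeR, 0.17 with the GC correction with or without the block and -0.14 to 0.088 with 1 library left out. In Hep3B DMSO cells FGFR3 was -0.046 with the GC correction with or without the block, and KLB was -0.0062 to 0.14 with 1 library left out. The interaction value of FGFR1 was 0.76 with the DMSO reference and -0.79 to 0.22 with 1 library left out. The cause was not tested.

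Replicate numbers did not pair the samples by the labels, and the replicate differences of 28 pairs of groups correlated between -0.22 and 0.44 over genes. With the replicate number as a block the counts were 5 for Hep3B-IR (FGFR1 and FGFR3 added, 27.2% of all genes) and 6 for Hep3B-CR (FGFR4 added, 32.2%). The count was 3 for Huh7 DMSO cells (FGFR3 added, 5.47%), and the other comparisons kept the counts reported. FGF21 lies too low for the filter, and FGFR2 in resistant Huh7 rests on at most 5 reads per library, so that its fold is known only within its interval.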
